A study of Mus musculus with 11 samples.

Results

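The epithelial sodium channel (ENaC) and the genes around its control by aldosterone were followed through the tubular segments of mouse kidneys examined long after an injury. The 9 genes were taken by symbol from the gene list of the count files, and all 9 were present among its 28692 genes. They were *Scnn1a*, *Scnn1b* and *Scnn1g* (the α, β and γ subunits of ENaC), *Nr3c2* (the mineralocorticoid receptor), *Hsd11b2* (11β-hydroxysteroid dehydrogenase type 2), *Sgk1*, *Nedd4l*, *Tsc22d3* and *Atp1b1*. The kidneys were those of male C57Bl/6 mice operated on at 10 weeks of age and analysed 28 days later. In unilateral ischemia/reperfusion (UIR) the vessels of the left kidney had been clamped for 30 min, and in unilateral ureteral obstruction (UUO) the left ureter had been tied irreversibly. Controls were naive mice, that is, mice without an operation, of the same strain and sex and of matching age, so that a sham operation is not part of the comparison. No engineered allele and no drug under test is named for any group, but the operated mice had inhaled isoflurane during surgery and were given buprenorphine against pain after it. Dissociated kidney cells, freed with a protease that works in the cold, were profiled by droplet-based 3′ single-cell RNA sequencing in 5 control, 3 UIR and 3 UUO libraries. The labels name the control libraries in 3 sets (Ctrl; N1 and N2; AN1 and AN2), which the series' design text calls batches, and the injured libraries as UIR, UIR1, UIR2, UUO, UUO1 and UUO2. No such set is given for the injured libraries, so that a batch and the injury cannot be told apart.

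ENaC carries sodium from the tubular fluid into the cells that line the last parts of the nephron and the collecting duct, and is the step at which aldosterone tunes sodium excretion. Aldosterone binds the receptor encoded by *Nr3c2*, and the enzyme encoded by *Hsd11b2* inactivates the much more plentiful glucocorticoids that would otherwise occupy the same receptor. Among the genes the receptor switches on is *Sgk1*, a kinase that inhibits the ubiquitin ligase encoded by *Nedd4l*, which removes ENaC from the cell surface. *Tsc22d3* (also known as GILZ) is a further steroid-induced gene, and *Atp1b1* encodes the β1 subunit of the Na,K-ATPase, the pump that moves sodium out of the cell on the blood side. Principal cells (PC) of the collecting duct and cells of the connecting tubule (CNT) are the best known sites of this pathway, intercalated cells (IC) lie between them and mainly handle acid and base, and the distal convoluted tubule (DCT), the thick ascending limb (TAL) and the proximal tubule (PT) lie upstream.

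The genes lie on several chromosomes of the GRCm38 build. *Scnn1g* (ENSMUSG00000000216, chr7:121734479-121768475) and *Scnn1b* (ENSMUSG00000030873, chr7:121865038-121918514) are neighbours on the plus strand, while *Scnn1a* (ENSMUSG00000030340) is at chr6:125320659-125344943 on the plus strand. *Nr3c2* (ENSMUSG00000031618, chr8:76899442-77245012) and *Hsd11b2* (ENSMUSG00000031891, chr8:105518755-105523988) are on the plus strand of the same chromosome. *Sgk1* (ENSMUSG00000019970) spans chr10:21882184-21999903 on the plus strand, *Tsc22d3* (ENSMUSG00000031431) chrX:140539528-140600659 on the minus strand and *Atp1b1* (ENSMUSG00000026576) chr1:164437109-164458355 on the minus strand.

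Steroid receptors, the mineralocorticoid receptor among them, bind a palindrome of AGAACA and TGTTCT set 3 bases apart. Promoter windows from 250 bases before to 50 bases after each annotated transcript start were given by RefSeq (GRCm38.p6) for 6 of the 9 genes, in 13 windows. The palindrome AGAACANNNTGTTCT was present in 1 of the 13, a window of *Sgk1*, and in 3 of all 32851 windows of the same length (0.00913%). The single motif TGTTCT, searched on both strands and also counted where it is part of the palindrome, was present in 4 of the 13 windows and in 6233 of all windows (19.0%). The *Sgk1* window (chr10:21993640-21993939, plus strand) is shown because *Sgk1* is the steroid target that changed in most distal segments, and the *Tsc22d3* window (chrX:140600473-140600772, minus strand) because it holds the single motif only. Capitals mark the single motif in the *Tsc22d3* window and the palindrome in the *Sgk1* window, whose first base lies 189 bases before the transcript start.
Sgk1: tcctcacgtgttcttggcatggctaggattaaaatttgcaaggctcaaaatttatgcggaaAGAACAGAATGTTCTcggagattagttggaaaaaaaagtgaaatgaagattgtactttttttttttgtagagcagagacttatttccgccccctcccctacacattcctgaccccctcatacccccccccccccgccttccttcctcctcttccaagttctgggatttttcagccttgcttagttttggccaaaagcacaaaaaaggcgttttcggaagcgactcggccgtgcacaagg
Tsc22d3: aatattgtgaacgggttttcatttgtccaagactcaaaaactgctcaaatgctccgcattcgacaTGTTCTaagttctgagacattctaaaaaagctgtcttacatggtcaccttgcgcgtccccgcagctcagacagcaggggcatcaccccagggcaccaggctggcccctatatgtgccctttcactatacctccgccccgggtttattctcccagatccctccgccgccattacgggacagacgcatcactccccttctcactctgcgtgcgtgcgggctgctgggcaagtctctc
A match of this kind describes the letters of a window and not a bound site.

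The libraries held 91920461 to 110914244 unique molecular identifiers (UMIs) in the control group, 82522753 to 117043590 in UIR and 49503312 to 60918546 in UUO. After removal of empty droplets, of cells rich in mitochondrial or haemoglobin transcripts and of likely doublets, 10274 control, 16940 UIR and 13369 UUO cells remained of 86667 called barcodes, of which 14953 were placed in a tubular segment and 5692 stayed unnamed. The mitochondrial limit took away between 57.0% and 78.9% of called barcodes per control library, but between 23.8% and 37.3% per UIR library and between 3.16% and 8.01% per UUO library, and the part of this difference in the results was not tested beyond the other limits tried. Segments were rebuilt from marker genes, so that each name below stands for a group that resembles that cell type. Control, UIR and UUO cells numbered 7128, 2561 and 163 in PT, 278, 1363 and 847 in TAL, 243, 325 and 175 in DCT, 372, 203 and 10 in CNT, 215, 152 and 14 in PC, and 239, 463 and 202 in IC. Any pair of libraries shared 0 to 18 cell barcodes, at most 0.328% of the cells. The defining markers were present in each segment but lower after injury, for example *Slc12a1* in TAL (7486, 3795 and 1645 CPM on average in control, UIR and UUO), *Slc12a3* in DCT (3807, 1399 and 536 CPM) and *Aqp2* in PC (8673 CPM in control and 3555 CPM in UIR).

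Levels are given as CPM, the UMIs of a gene scaled to the same total of UMIs in every pool, where a pool is all cells of 1 segment in 1 library and held at least 20 cells. Because each transcript is counted once at its 3′ end, no division by transcript length was made, and levels are compared within a gene only. Per-library values are listed in the order Ctrl, N1, N2, AN1, AN2 for control, UIR, UIR1, UIR2 for UIR and UUO, UUO1, UUO2 for UUO. Tests are edgeR quasi-likelihood tests over the pools of a segment, with p-values adjusted over all genes tested in that segment and called under 0.05. The fitted changes are relative to the bulk of genes, since edgeR scales pools by trimmed means. With total UMIs as the only scaling, the median gene lay at 0.32 (log2) in TAL in both injuries, at 0.41 in UIR and 0.47 in UUO in DCT, at 0.28 and 0.33 in IC, and at 0.15 in CNT and 0.03 in PC of UIR. Calls that this choice ends are named where they occur. Each gene and segment pair was also tested under up to 25 alternatives (other filters, ways of naming cells, scalings and tools, libraries left out, single clusters), and the number that end or add a call is given beside pairs where it matters. The fits of single clusters admitted pools of at least 5 cells.

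In control kidneys the 3 channel subunits were highest in PC by mean CPM (*Scnn1g* in PC and CNT alike) and fell off upstream, with *Scnn1a* reaching further up the nephron than the other subunits. *Scnn1a* averaged 466.5 ± 149 CPM (SD, n = 5) in PC, 317 ± 58.6 in IC, 274 ± 86.1 in CNT, 218 ± 32.0 in DCT, 132 ± 40.1 in TAL and 3.69 ± 1.65 in PT. PC exceeded IC (log2 difference 0.32, edgeR adjusted p = 0.0082), IC and CNT did not differ beyond their spread, and CNT exceeded DCT (0.36, edgeR adjusted p = 0.018), DCT exceeded TAL (0.86, edgeR adjusted p = 4.1e-06) and TAL exceeded PT (4.68, edgeR adjusted p = 1.4e-26). *Scnn1b* averaged 574 ± 78.6 CPM in PC, 355 ± 39.4 in CNT, 182 ± 53.5 in IC, 52.2 ± 33.9 in DCT, 3.47 in TAL and 0.923 in PT. Each step down to TAL passed the test, from PC over CNT (0.36, edgeR adjusted p = 0.032) to DCT over TAL (4.002, edgeR adjusted p = 6.1e-07). The clusters within PC and within CNT, given below, differed in these levels. The γ subunit followed the same order, with 366 ± 47.3 CPM in PC and 332 ± 59.2 in CNT, which did not differ beyond their spread (fitted log2 difference of PC minus CNT -0.18, edgeR adjusted p = 0.29, so that the sign was opposite to that of the means), then 97.8 ± 36.8 in IC, 43.9 ± 14.4 in DCT and 2.62 in TAL.

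The enzyme that protects the receptor was highest in the same segments as the β and γ subunits. *Hsd11b2* averaged 4265 ± 448 CPM in PC and 2644 ± 603 in CNT, with every PC library above every CNT library although the fitted difference did not pass (0.39, edgeR adjusted p = 0.13), then 993 ± 348 in IC and 48.4 ± 45.5 in DCT, a drop between the last 2 segments of 4.34 on the log2 scale (edgeR adjusted p = 6.7e-18). The control IC pools also held PC markers, summing to 917 to 3232 CPM, and CNT markers, summing to 3929 to 8228 CPM. Their part in the IC levels of *Hsd11b2* and of the channel subunits was not tested. The receptor gene *Nr3c2* was spread more evenly, with 125 ± 23.7 CPM in PC, 78.7 ± 21.6 in CNT, 51.2 ± 10.6 in IC, 33.7 ± 9.95 in DCT, 29.1 ± 14.8 in TAL and 2.21 in PT. Its only steps that passed were CNT over IC (log2 difference 0.70, edgeR adjusted p = 0.0043) and TAL over PT (3.31, edgeR adjusted p = 1e-13). *Sgk1* averaged 136 ± 82.8 CPM in CNT and 121 ± 73.5 in PC, 54.9 ± 3.68 in IC, 29.6 ± 20.5 in PT, 14.9 ± 10.9 in DCT and 2.05 in TAL. Its level in CNT and PC depended on the library, with 189, 40.013, 201, 50.4 and 199 CPM in CNT, where N1 and AN1 lay far below the other control libraries. The endothelial pools, with 820.1 ± 110.4 CPM, were above every tubular segment.

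*Nedd4l* was highest in IC (161 CPM) and PC (158 CPM), which did not differ, and only PC over CNT passed further down (log2 difference 0.93, edgeR adjusted p = 2.6e-05). *Tsc22d3* showed no step between neighbouring segments that passed the test, at 27.7 CPM in DCT and 27.1 in PC at the top and 10.9 in IC at the bottom. *Atp1b1* was highest in TAL (3807 ± 568.2 CPM), which did not differ from DCT, and lowest in PT (707 CPM). In all, 24 of the 45 steps between neighbours in the order passed, with the segments ordered by the same values that the test used. Over all genes tested, the share that differed was 60.1% between PT and TAL, 62.8% between PT and DCT, 61.8% between PT and CNT, 71.3% between PT and PC and 66.6% between PT and IC. Between TAL and DCT it was 17.6%, between TAL and CNT 20.7% and between TAL and IC 29.6%. Between DCT and CNT it was 22.9%, between DCT and PC 44.2%, between DCT and IC 34.8%, between CNT and PC 26.9%, between CNT and IC 20.1% and between PC and IC 33.7%.

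**Figure D1:**
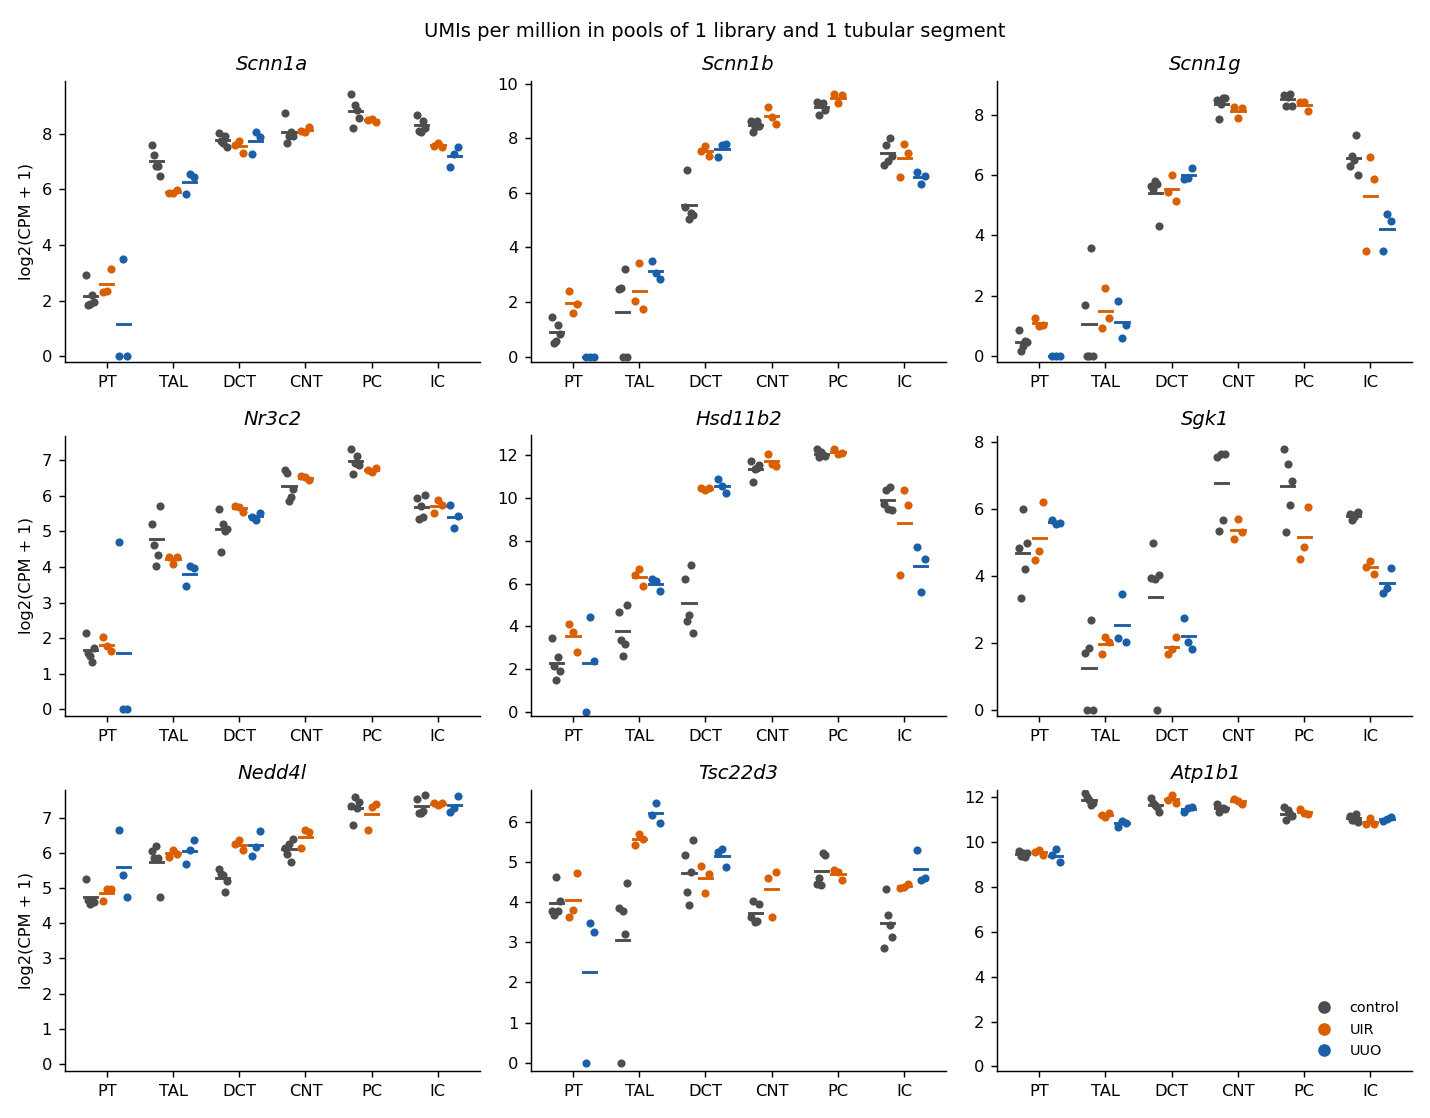
Levels of the 9 genes on the vertical axis, as log2(CPM + 1), in PT, TAL, DCT, CNT, PC and IC along the horizontal axis; each point is 1 library, coloured by group. *Hsd11b2* in DCT sits near 48.4 CPM in control and at 1184 CPM or more in every injured library, and UUO has no point in CNT or PC, where no library held 20 cells.

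All 9 genes passed the filter on low counts in DCT, PC and IC, and 8 in PT and TAL (without *Scnn1g*) and in CNT (without *Tsc22d3*). Across these segments, 17 of 51 gene and segment pairs passed in UIR against control, 7 higher and 10 lower, and 18 of 34 passed in UUO against control, 6 higher and 12 lower. With total UMIs as the only scaling, the counts became 17 (9 higher, 8 lower) and 16 (7 higher, 9 lower). The pairs were spread unevenly, with calls in each of TAL, DCT and IC in both injuries and a single call each in PC and CNT of UIR kidneys. The share of all genes called in UIR was 16.8% higher and 14% lower in TAL, 17.9% higher and 17.7% lower in DCT, 7.44% higher and 8.14% lower in IC, 6.87% higher and 2.92% lower in PT, 3.62% higher and 5% lower in CNT, and 2.48% higher and 3.55% lower in PC. In UUO it was 20.1% higher and 16.6% lower in TAL, 20.6% higher and 19.9% lower in DCT, 11.8% higher and 13.5% lower in IC, and 3.23% in either direction in PT. Both injuries were compared with the same 5 control libraries.

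**Figure D2:**
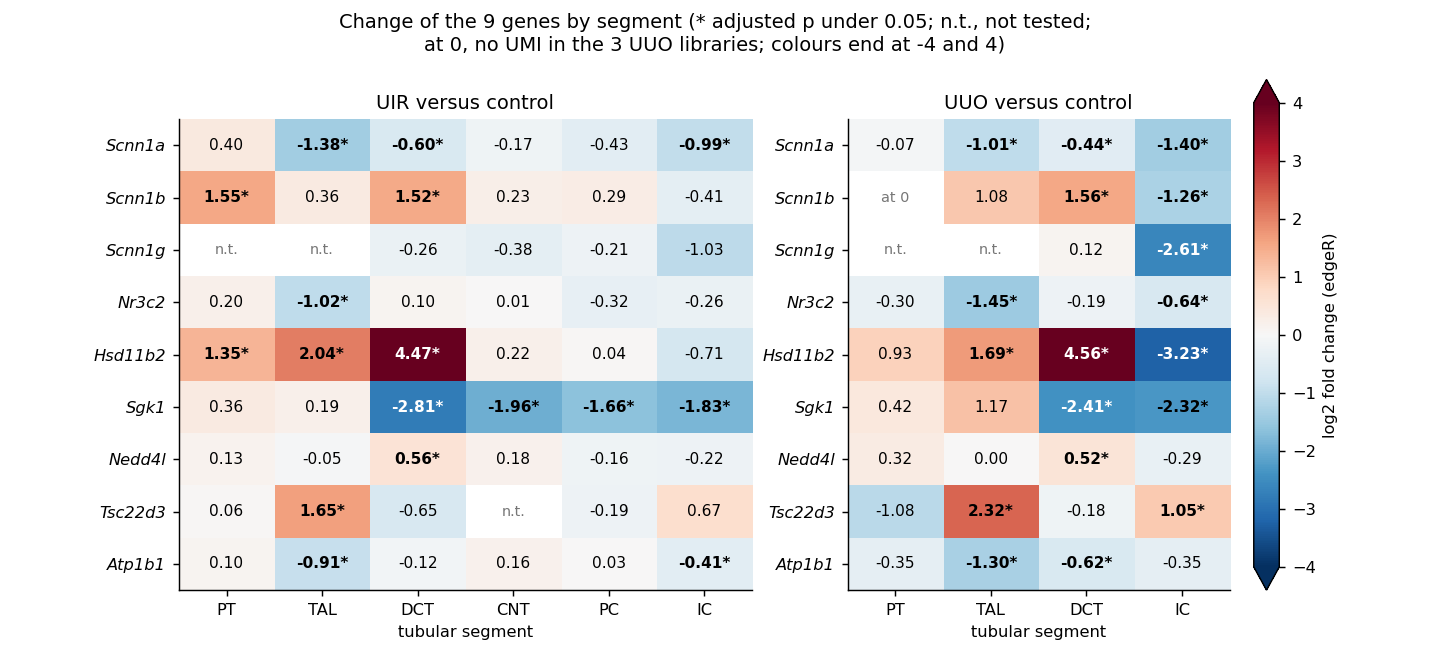
Fitted log2 fold change of the 9 genes (rows) in each tubular segment (columns), UIR against control and UUO against control, with colour from lower (blue) to higher (red) and a star where the adjusted p is under 0.05. *Hsd11b2* in DCT is at 4.47 and 4.56, *Sgk1* is negative with a star in DCT, CNT, PC and IC of UIR, and UUO could not be tested in CNT and PC.

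In PC, the segment with the most ENaC, no subunit passed the test after UIR. *Scnn1a*, the subunit that limits channel assembly, was at 682, 293, 523, 462 and 373 CPM in the 5 control libraries and at 358, 368 and 336 in the 3 UIR libraries (log2 fold change -0.43 ± 0.18 (SE), edgeR adjusted p = 0.18). Control N1 lay below all UIR libraries, and the other 4 control libraries lay above them. Without N1 the change was -0.54, edgeR adjusted p = 0.049. It also passed where the cells were named or filtered in another way, with each cell gated on its own (-0.74, edgeR adjusted p = 0.031), at Leiden resolution 2 (-0.72), with doublets kept (-0.73), with at least 1000 UMIs per cell (-0.75) and with a mitochondrial limit of 50% (-0.56). *Scnn1b* was at 650.0, 463, 609, 626 and 522 CPM in control and 784, 623 and 759 in UIR (log2 fold change 0.29 ± 0.13 (SE), edgeR adjusted p = 0.23), and *Scnn1g* averaged 366 ± 47.3 and 323 ± 36.6 CPM (log2 fold change -0.21 ± 0.14 (SE), edgeR adjusted p = 0.48). The groups overlapped for both, and *Scnn1g* passed in 1 alternative, with each cell gated on its own (-0.52, edgeR adjusted p = 0.045).

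The make-up of PC differed between the groups. Of the 215 control PC, 113 belonged to a cluster led by *Kcne1*, *Aqp3* and *Scnn1b* (cluster 14) and 102 to one led by *Aqp2* and *Aqp4* (cluster 18), whereas 144 of the 152 UIR cells belonged to cluster 14. Within cluster 14 alone, *Scnn1a* was lower in UIR (log2 fold change -0.81, edgeR adjusted p = 0.0012), at 656 CPM over all control cells and 364 over all UIR cells, while *Scnn1b* (-0.15, edgeR adjusted p = 0.69) and *Scnn1g* (-0.38, edgeR adjusted p = 0.16) did not pass. In that fit 5.17% of all genes passed. The water channel gene *Aqp2* was -1.33 (edgeR adjusted p = 1.8e-05) and the vasopressin receptor gene *Avpr2* -1.50 (edgeR adjusted p = 7.6e-07) in all PC. Whether the shift between clusters accounts for either pattern was not tested.

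The share of single PC with a UMI of each subunit gave a similar picture. With every cell thinned to 2000 UMIs, which left 210 control and 149 UIR cells, *Scnn1a* was seen in 51.8% ± 8.20 (SD, n = 5) of control and 45.3% ± 6.47 (n = 3) of UIR cells (two-sided exact permutation test over libraries, p = 0.1786). For *Scnn1b* the shares were 65.5% ± 2.44 and 76.0% ± 11.2 (exact permutation p = 0.07143), and for *Scnn1g* 56.4% ± 8.633 and 50.5% ± 11.7 (exact permutation p = 0.3929). The smallest p that 5 against 3 libraries allow is 0.03571. In PT, which should lack the channel, the thinned shares were 0.583%, 0.283% and 0.194%. Without thinning the PC shares were 89.1% and 84.0%, 93.1% and 96.8%, and 86.9% and 86.3%, in the same order, and those in PT 2.302%, 0.733% and 0.351%.

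UUO kidneys retained 14 PC and 10 CNT cells, which is too few for pools of 20. Summed over the 14 PC, *Scnn1a* stood at 249 CPM (95% exact Poisson interval 186 to 325), against 481 CPM summed over control and 355 over UIR. *Scnn1b* stood at 648 CPM (95% exact Poisson interval 544 to 765) against 582 and 707, and *Scnn1g* at 296 CPM (95% exact Poisson interval 227 to 378) against 371 and 323. These intervals cover counting error only. When pools of at least 3 cells were admitted, *Scnn1a* was lower in UUO (log2 fold change -0.96, edgeR adjusted p = 0.029) and no other member passed, where 4.57% of all genes did. *Hsd11b2* in those 14 cells was 3383 CPM, against 4289.8 in control and 4419 in UIR. In the 10 CNT cells, 9 of them from UUO2, *Scnn1a* stood at 624 CPM (95% exact Poisson interval 435 to 868) and *Hsd11b2* at 2513 CPM, and *Sgk1* had 1 UMI. All 35 *Scnn1a* UMIs came from 2 cells of cluster 16, and the other 8 cells, of cluster 10, had none.

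The number of UUO cells in these segments depended on how cells were named. At Leiden resolution 2 there were 85 UUO cells called PC, 78 of them in 2 pools, with *Aqp2* at 357 to 491 CPM against 5396 to 10059 in control. *Aqp3* was at 44.6 to 204 CPM in these pools against 2085 to 2770 in control, and *Fxyd4* at 1988 to 2484 against 5038 to 9056. Whether they hold the same kind of cell as the 14 PC of the main setting was not tested. All 9 members passed in these pools against control, where 28.8% of all genes did, and against UIR, where 17.5% did. *Scnn1a* (-3.48, edgeR adjusted p = 9.1e-09), *Scnn1b* (-2.06, edgeR adjusted p = 1.1e-07), *Scnn1g* (-2.87, edgeR adjusted p = 5.1e-09) and *Hsd11b2* (-3.18, edgeR adjusted p = 1.6e-09) were lower than in control, as were *Nr3c2*, *Nedd4l* and *Atp1b1*. *Sgk1* (1.76, edgeR adjusted p = 0.0012) and *Tsc22d3* (2.03, edgeR adjusted p = 4.2e-07) were higher, *Sgk1* at 435 to 474 CPM against 44.0 to 251 in control and 21.1 to 155 in UIR. With each cell gated on its own, 51 UUO cells in 2 pools were called CNT, and 7 of 9 members passed against control, all lower, where 32.9% of all genes passed. Against UIR 5 of 9 passed, all lower, where 5.4% of all genes did.

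In CNT of UIR kidneys no channel transcript passed the test. *Scnn1a* averaged 274 ± 86.1 CPM in control and 278 ± 17.8 in UIR (log2 fold change -0.17 ± 0.16 (SE), edgeR adjusted p = 0.63), *Scnn1b* 355 ± 39.4 and 456 ± 102 (0.23, edgeR adjusted p = 0.4) and *Scnn1g* 332 ± 59.2 and 282 ± 37.5 (-0.38, edgeR adjusted p = 0.11). The γ subunit passed in 3 of 24 alternatives, as lower, without control N1 (-0.47, edgeR adjusted p = 0.035), without both N libraries (-0.50) and with each cell gated on its own (-0.66, edgeR adjusted p = 0.0039). With a mitochondrial limit of 50% the β subunit (0.40, edgeR adjusted p = 0.021) and *Hsd11b2* (0.57, edgeR adjusted p = 0.0039) passed as higher. *Hsd11b2* averaged 2644 ± 603 and 3393 ± 766 CPM in CNT and 4265 ± 448 and 4501 ± 445 in PC, with overlapping libraries in both segments. *Nr3c2* averaged 78.7 ± 21.6 and 89.8 ± 2.91 in CNT and 125 ± 23.7 and 105 ± 4.70 in PC, and did not pass in either, though in PC it did with doublets kept (-0.62, edgeR adjusted p = 0.034). CNT held cluster 10 (259 control and 123 UIR cells, median 1230.5 UMIs per cell) and cluster 16 (113 and 80 cells). In their control cells summed *Scnn1b* was 91.8 and 445 CPM, against 782 and 369 in PC clusters 14 and 18. Summed *Scnn1g* was 97.6 and 410 against 407 and 331 CPM. The part of this make-up in the order of PC and CNT was not tested.

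IC of UUO had 6 members lower, the most among the segments that could be tested in UUO in the main setting, which leaves out PC and CNT, with lower *Sgk1* and *Scnn1a* in both injuries and lower *Scnn1b*, *Scnn1g*, *Nr3c2* and *Hsd11b2* in UUO. *Scnn1a* was at 405, 269, 268, 347 and 294 CPM in control, 187, 204 and 185 in UIR (log2 fold change -0.99 ± 0.16 (SE), edgeR adjusted p = 0.00012) and 109, 153 and 182 in UUO (log2 fold change -1.40 ± 0.17 (SE), edgeR adjusted p = 1.3e-06). No injured library reached the lowest control value. *Scnn1b* was at 129.9, 216, 143, 258 and 164 CPM in control, 95.1, 220.3 and 173 in UIR (log2 fold change -0.41 ± 0.22 (SE), edgeR adjusted p = 0.24) and 107, 79.3 and 96.4 in UUO (log2 fold change -1.26 ± 0.24 (SE), edgeR adjusted p = 0.00041). The UUO libraries were below all 5 control libraries, and the UIR libraries overlapped them, but with a mitochondrial limit of 50% the UUO change did not pass (-0.66, edgeR adjusted p = 0.069). *Scnn1g* was at 78.7, 97.3, 90.1, 159.6 and 63.5 CPM in control, 10.2, 96.2 and 57.6 in UIR (log2 fold change -1.03 ± 0.38 (SE), edgeR adjusted p = 0.068) and 10.2, 24.9 and 21.3 in UUO (log2 fold change -2.61 ± 0.48 (SE), edgeR adjusted p = 0.00024). One UIR library, UIR1, sat in the control range, and without it the UIR change of *Scnn1g* was -1.77, edgeR adjusted p = 0.0017 and that of *Scnn1b* -0.70, edgeR adjusted p = 0.04. Over 25 alternatives the UIR change of *Scnn1g* ran from -1.77 to -0.27 and that of *Scnn1b* from -0.70 to 0.13, and they did not pass in 22 and 24. *Hsd11b2* was at 842, 1297, 715, 1432 and 678 CPM in control, 83.7, 1303 and 817 in UIR (log2 fold change -0.71 ± 0.48 (SE), edgeR adjusted p = 0.38) and 209, 47.2 and 140.4 in UUO (log2 fold change -3.23 ± 0.57 (SE), edgeR adjusted p = 0.00017), so that every UUO library was below every control library. Its UIR change ran from -1.43 to 0.19 over 25 alternatives and did not pass in 24. *Nr3c2* averaged 51.2 ± 10.6 CPM in control and 42.3 ± 9.61 in UUO (log2 fold change -0.64 ± 0.20 (SE), edgeR adjusted p = 0.023), a call that ended in 9 of 25 alternatives, among them without Ctrl (-0.58), AN2 (-0.55), UUO1 (-0.47), UUO2 (-0.63) or both AN libraries (-0.61) and with total UMIs as the scaling (-0.31, edgeR adjusted p = 0.23).

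Markers of neighbouring cell types moved with these genes in the IC pools. The 5 PC markers (*Aqp2*, *Aqp3*, *Fxyd4*, *Avpr2* and *Apela*) summed to 917 to 3232 CPM in control (median 2137), 335 to 1572 in UIR (median 1218) and 228 to 419.7 in UUO (median 259). *Aqp2* alone averaged 713 ± 330.0, 249 ± 216 and 7.27 ± 7.10 CPM. The 5 CNT markers summed to 3929 to 8228 CPM in control, 1814 to 2279.6 in UIR and 1209 to 2319.7 in UUO. Estimated free RNA made up 3.769% to 8.473% of IC UMIs in control, 4.560% to 6.844% in UIR and 2.324% to 3.402% in UUO, and subtracting the empty-droplet profile kept all 18 UUO calls. The free RNA share was estimated from markers of podocytes, endothelium, immune cells and PT, and not from those of PC or CNT. Empty droplets of control held *Hsd11b2* at 23.5 to 160 CPM, so that at these shares the subtraction could remove little of it. The part of PC or CNT transcripts in the IC values was not tested.

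**Figure D3:**
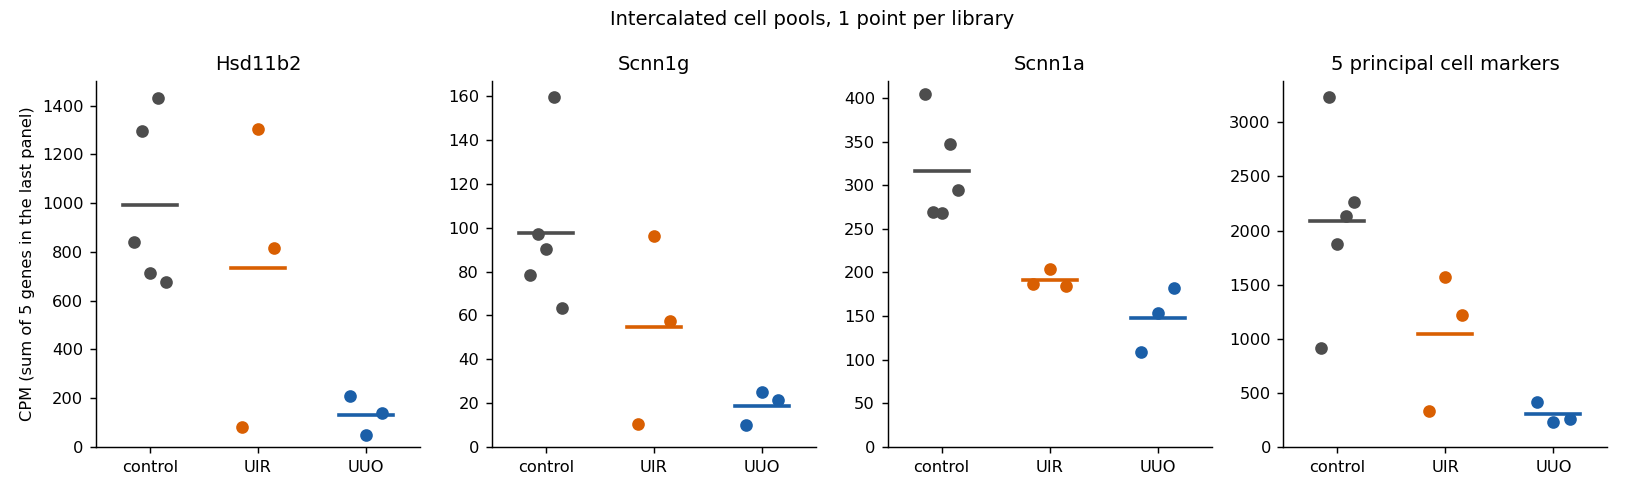
CPM in IC pools of each library, by group, for channel and *Hsd11b2* transcripts and, in the last panel, for the sum of the 5 PC markers. The UUO points lie at 47.2 to 209 CPM for *Hsd11b2* and at 228 to 419.7 CPM for the PC markers, below every control point in both panels.

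IC consist of an *Aqp6* and *Slc4a1*-led cluster (cluster 4, 61 control, 237 UIR and 169 UUO cells) and an *Slc26a4*-led cluster (cluster 7, 178, 226 and 33 cells), so the mix also shifted. Within cluster 4, the UUO change was -1.16, edgeR adjusted p = 6.5e-05 for *Scnn1a*, -1.50, edgeR adjusted p = 1.3e-05 for *Scnn1b*, -2.25, edgeR adjusted p = 0.0018 for *Scnn1g* and -2.98, edgeR adjusted p = 0.00045 for *Hsd11b2*, in a fit where 16.8% of all genes passed. Within cluster 7, *Scnn1a* (-1.77, edgeR adjusted p = 0.006) and *Hsd11b2* (-4.26, edgeR adjusted p = 0.0071) passed and *Scnn1b* (-2.27, edgeR adjusted p = 0.27) and *Scnn1g* (-3.77, edgeR adjusted p = 0.11) did not, where 3.22% of all genes passed. The 33 UUO cells of cluster 7 held 14 UMIs of *Scnn1a* and 7 of *Hsd11b2*, and only 1 UUO library gave at least 10 of these cells. After UIR, *Scnn1a* was lower within cluster 4 (-0.87, edgeR adjusted p = 0.0017) and within cluster 7 (-0.82, edgeR adjusted p = 0.017), where 11.2% and 4.05% of all genes passed.

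TAL lost *Scnn1a* as well. It was at 191, 151, 113, 114 and 89.0 CPM in control, 58.0, 57.5 and 61.8 in UIR (log2 fold change -1.38 ± 0.19 (SE), edgeR adjusted p = 4.8e-06) and 55.7, 92.4 and 85.2 in UUO (log2 fold change -1.01 ± 0.19 (SE), edgeR adjusted p = 0.00019). All UIR libraries lay below all control libraries, while UUO1 lay just above the lowest control library, AN2. *Nr3c2* was at 36.0, 23.5, 15.4, 19.0 and 51.5 CPM in control, 18.5, 15.8 and 18.3 in UIR (log2 fold change -1.02 ± 0.27 (SE), edgeR adjusted p = 0.0062) and 10.0, 15.2 and 14.6 in UUO (log2 fold change -1.45 ± 0.29 (SE), edgeR adjusted p = 0.00038). UIR overlapped control, and its call ended without AN2 (-0.68) or both AN libraries (-0.74). *Scnn1b* averaged 3.47, 5.09 and 7.97 CPM in the 3 groups, and *Scnn1g* 2.62, 2.03 and 1.34 CPM, the latter with too few UMIs to be tested. In UUO *Scnn1b* in TAL passed as higher with a mitochondrial limit of 50% (2.20, edgeR adjusted p = 0.0036) and with doublets kept (3.21, edgeR adjusted p = 0.0064).

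The clusters that make up TAL were not the same in the groups. Cluster 12, led by *Egf*, held 248 of the 278 control cells but 72 UIR and 3 UUO cells, cluster 0, led by *Cldn10* and *Umod*, held 742 UIR and 318 UUO cells, and cluster 3, led by *Psca*, *Slurp1* and *Mmp7* with less *Slc12a1*, held 260 UIR, 376 UUO and no control cells. Cluster 6, led by *Gm26917*, *Gm26870* and *Slc12a1* with a median of 2141 UMIs per cell, held 21 control, 289 UIR and 150 UUO cells. Summed *Scnn1a* was 139.5 CPM in control cells of cluster 12, 74.8 in its UIR cells, 62.3 in UIR cells of cluster 0 and 47.9 in those of cluster 3. In UUO cells it was 88.1 CPM in cluster 0, 66.5 in cluster 3 and 107 in cluster 6, in UIR cells of cluster 6 70.7, in the 9 control cells of cluster 0 63.6, and in the 21 control cells of cluster 6 231 from 5 UMIs. In control and UIR cells of cluster 12 and UIR cells of clusters 0 and 3, in this order, *Tsc22d3* was 8.21, 11.5, 43.3 and 58.5 CPM, *Hsd11b2* 7.57, 11.5, 81.1 and 73.7 CPM and *Atp1b1* 3942, 3414, 2652 and 1544 CPM. Within cluster 12 the UIR change of *Scnn1a* (-0.87, edgeR adjusted p = 0.11) and of *Atp1b1* (-0.18, edgeR adjusted p = 0.64) did not pass, where 1.47% of all genes passed.

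DCT moved the other way for the β subunit. *Scnn1b* was at 43.7, 112, 32.2, 37.1 and 35.7 CPM in control, 183, 209 and 163 in UIR (log2 fold change 1.52 ± 0.23 (SE), edgeR adjusted p = 4.5e-06) and 156, 214 and 222 in UUO (log2 fold change 1.56 ± 0.23 (SE), edgeR adjusted p = 2.8e-06). Control N1 stood apart from the other control libraries, and every injured library lay above it. *Scnn1a* was at 261, 209, 201, 239.8 and 180.4 CPM in control, 194, 209.6 and 155 in UIR (log2 fold change -0.60 ± 0.16 (SE), edgeR adjusted p = 0.0041) and 153, 262 and 237 in UUO (log2 fold change -0.44 ± 0.16 (SE), edgeR adjusted p = 0.031). These groups overlapped, and with total UMIs as the scaling the changes were -0.23, edgeR adjusted p = 0.25 and -0.0016, edgeR adjusted p = 0.99, so that the lower *Scnn1a* holds only relative to the bulk of genes. The UUO call also ended without Ctrl (-0.36), AN1 (-0.42), UUO (-0.26) or both N libraries (-0.48), and in 7 of 23 alternatives in all. *Scnn1g* averaged 43.9 ± 14.4, 46.6 ± 14.8 and 63.3 ± 9.35 CPM and did not pass (-0.26, edgeR adjusted p = 0.42 in UIR and 0.12, edgeR adjusted p = 0.73 in UUO). It was higher with a mitochondrial limit of 50%, in UIR (2.91, edgeR adjusted p = 6.2e-09) and in UUO (3.33, edgeR adjusted p = 2e-10), and with each cell gated on its own, in UIR (3.63, edgeR adjusted p = 1.1e-05) and in UUO (4.38, edgeR adjusted p = 9e-08). With total UMIs as the scaling it passed in UUO (0.55, edgeR adjusted p = 0.048).

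Among the changes of the 9 genes that passed, that of *Hsd11b2* in DCT was the largest in each injury. It was at 73.2, 17.9, 22.2, 117 and 11.9 CPM in control, 1408, 1299 and 1389 in UIR (log2 fold change 4.47 ± 0.30 (SE), edgeR adjusted p = 3e-12) and 1859, 1493 and 1184 in UUO (log2 fold change 4.56 ± 0.30 (SE), edgeR adjusted p = 9.6e-13). The highest control library, AN1, was at 117 CPM and the lowest injured library, UUO2, at 1184 CPM. The injured DCT level was still below that of PC in control, 4265 CPM. *Nr3c2* averaged 33.7 ± 9.95, 49.2 ± 3.499 and 42.0 ± 3.01 CPM and did not pass in either injury, but passed as higher in UIR with total UMIs as the scaling (0.47, edgeR adjusted p = 0.049) and as lower in UUO with a mitochondrial limit of 50% (-0.46, edgeR adjusted p = 0.0085).

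The make-up of DCT from its 2 clusters differed between the groups. Cluster 13, led by *Slc12a3*, *Pvalb* and *Abca13*, held 241 control, 28 UIR and 9 UUO cells, and cluster 5, led by *Ltc4s*, *Scube3* and *Tmem52b* with *Clu* among its leading genes, held 2, 297 and 166. Summed over cells, *Hsd11b2* was 47.7 CPM in control, 36.6 in UIR and 168 in UUO cells of cluster 13, and 1466 and 1548 in UIR and UUO cells of cluster 5. The 2 control cells of cluster 5 held 3 UMIs of *Hsd11b2* (159.7 CPM) and 5 of *Scnn1b* (266 CPM), too few to compare. *Scnn1b* was 47.4, 50.7 and 144 CPM in cluster 13 and 195 and 201 in cluster 5. Within cluster 13, UIR did not differ from control in *Hsd11b2* (-0.35, edgeR adjusted p = 0.92), *Scnn1b* (0.08, edgeR adjusted p = 0.98), *Scnn1a* (-0.16, edgeR adjusted p = 0.88) or *Nedd4l* (-0.35, edgeR adjusted p = 0.87) beyond the spread, in a fit of small pools in which 0.492% of all genes passed. The clusters were formed on variable genes from which the markers and the listed genes, these 9 included, had been left out.

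Single cells carried both transcripts. Among DCT cells with a UMI of *Slc12a3*, the thiazide-sensitive cotransporter of this segment, after thinning to 2000 UMIs, 6 of 220 control cells (2.73%, 95% exact binomial interval 1.01 to 5.84) also had a UMI of *Hsd11b2*. In UIR these were 133 of 208 (63.9%, 57.0 to 70.5) and in UUO 34 of 61 (55.7%, 42.5 to 68.5). These intervals cover counting error only and not the spread between libraries. The shares ranged from 0% to 8.57% over the control libraries, from 59.8% to 67.3% over UIR and from 43.5% to 82.4% over UUO, without overlap between control and injury. For *Scnn1b* the shares of the same cells ranged from 4.76% to 9.43% over the control libraries and from 22.4% to 31.3% over UIR, and were 5.88%, 19.1% and 47.8% in the UUO libraries, so that UUO overlapped control. The cells with *Slc12a3* were 53 of 58, 35 of 36, 42 of 47, 35 of 37 and 55 of 59 thinned DCT cells in the control libraries. In UIR they were 92 of 146, 67 of 94 and 49 of 80, and in UUO 17 of 60, 21 of 56 and 23 of 53. The shares thus cover a smaller part of the DCT cells after injury. PC markers were also higher in the DCT pools, summing to 23.0 to 44.3 CPM in control, 174 to 241 in UIR and 139 to 327 in UUO, against 8495 to 23912 CPM in PC pools. The 4 DCT markers (*Slc12a3*, *Pvalb*, *Tmem52b* and *Trpm6*) summed to 5142 to 7162 CPM in control, 3848 to 4044 in UIR and 2369 to 2668 in UUO, and of these *Pvalb* was at 591, 12.4 and 3.69 CPM. The 5 CNT markers summed to 15058 to 33167 CPM, 7164 to 13327 and 2612 to 5626 in the same pools. Free RNA made up 2.509% to 9.021% of DCT UMIs in control, 3.247% to 6.361% in UIR and 2.061% to 2.976% in UUO.

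TAL also gained *Hsd11b2*, at a much lower level, from 24.8, 9.41, 5.13, 8.15 and 30.4 CPM in control to 83.0, 102 and 58.6 in UIR (log2 fold change 2.04 ± 0.33 (SE), edgeR adjusted p = 4.7e-05) and 72.7, 67.9 and 49.2 in UUO (log2 fold change 1.69 ± 0.35 (SE), edgeR adjusted p = 0.00045). Every injured library lay above every control library, but neither change passed at Leiden resolution 2 (0.66, edgeR adjusted p = 0.27 in UIR and 0.35, edgeR adjusted p = 0.58 in UUO). PC markers in these TAL pools summed to 29.9 to 112 CPM in control, 123 to 147 in UIR and 129 to 171 in UUO, and their part in the gain was not tested.

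*Sgk1* was lower after UIR in DCT, CNT, PC and IC, and after UUO in DCT and IC, the 2 of these segments with enough UUO cells. In DCT it was at 14.2, 30.6, 14.1, 0 and 15.3 CPM in control, 2.20, 2.52 and 3.48 in UIR (log2 fold change -2.81 ± 0.52 (SE), edgeR adjusted p = 7.9e-05) and 5.69, 3.07 and 2.55 in UUO (log2 fold change -2.41 ± 0.53 (SE), edgeR adjusted p = 0.00052). Control AN1 had no *Sgk1* UMI in this segment, so the groups overlapped through that library. In CNT it went from 189, 40.013, 201, 50.4 and 199 CPM to 33.6, 51.1 and 38.5 in UIR (log2 fold change -1.96 ± 0.32 (SE), edgeR adjusted p = 2.3e-05), and in PC from 223, 39.2, 162, 68.2 and 113 to 21.9, 28.3 and 65.9 (log2 fold change -1.66 ± 0.37 (SE), edgeR adjusted p = 0.0054). N1 and AN1 were the lowest control libraries in both segments. Both overlapped the UIR libraries in CNT, and N1 did in PC, where AN1 lay just above the highest UIR library. The PC call ended without UIR (-1.45) or UIR1 (-1.43), and also with each cell gated on its own (-0.91), at Leiden resolution 2 (-0.74), with doublets kept (-0.66), with at least 1000 UMIs per cell (-0.75) and with DESeq2 (-1.67). DESeq2 ended the CNT call too (-1.86, DESeq2 adjusted p = 0.059). IC had the tightest control values, 56.2, 49.6, 52.9, 57.1 and 58.8 CPM, against 18.2, 20.9 and 15.7 in UIR (log2 fold change -1.83 ± 0.20 (SE), edgeR adjusted p = 1.1e-06) and 10.2, 11.6 and 17.7 in UUO (log2 fold change -2.32 ± 0.23 (SE), edgeR adjusted p = 1e-07), with no overlap. Within single clusters the UIR change was -2.13, edgeR adjusted p = 3.9e-06 in PC cluster 14 and -2.11, edgeR adjusted p = 4.3e-05 in CNT cluster 16, where 5.51% of all genes passed. In IC cluster 4 it was -2.01, edgeR adjusted p = 0.0001 in UIR and -2.28, edgeR adjusted p = 2.4e-05 in UUO, and in IC cluster 7 it passed in UIR (-1.16, edgeR adjusted p = 0.016) and not in UUO (-0.38, edgeR adjusted p = 0.81). Upstream, *Sgk1* averaged 29.6 ± 20.5, 40.014 ± 28.4 and 47.8 ± 2.29 CPM in PT and 2.05, 2.93 and 5.51 in TAL, and did not pass there.

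*Sgk1* is also known as a gene that responds quickly to handling of cells, so the immediate early and heat shock genes are given beside it. Their 14 genes summed to 705 to 1485 CPM in IC of control, 1722 to 2452 in UIR and 2619 to 3782 in UUO, that is, in the direction opposite to *Sgk1* in this segment. In DCT the sums were 1014 to 1848, 1379 to 2044 and 1432 to 2341 CPM, which overlapped. They overlapped also in CNT, at 411 to 904 CPM in control and 605 to 808 in UIR, and in PC, at 815 to 2386 and 937 to 1219.6 CPM. Among the control libraries in CNT, N2 and AN2, both high in *Sgk1*, had sums of 904 and 801 CPM, Ctrl, also high in *Sgk1*, 499.98 CPM, and N1 and AN1, both low, 536 and 411 CPM. The part of handling in the *Sgk1* values was not tested.

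**Figure D4:**
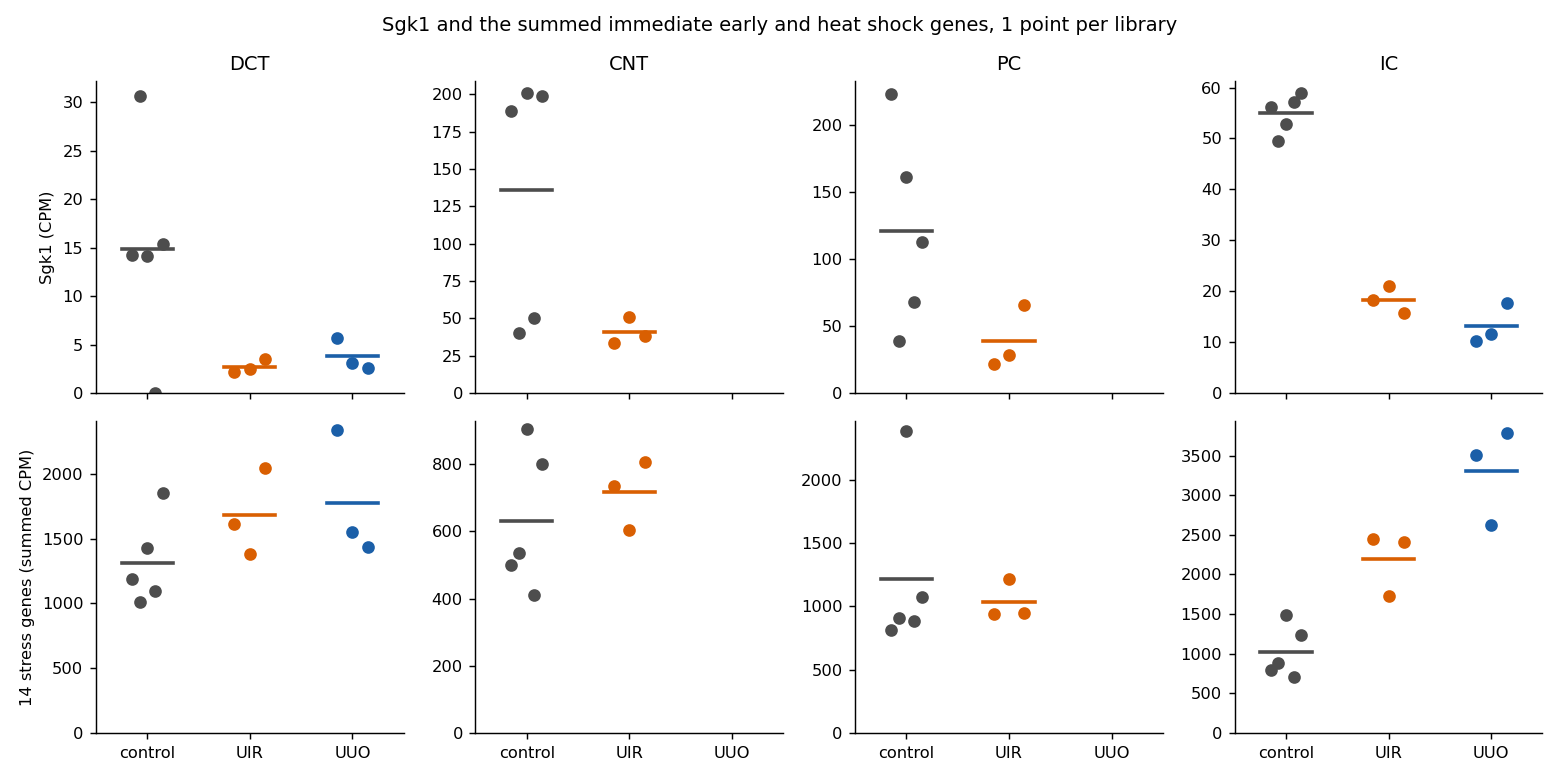
*Sgk1* (upper row) and the sum of 14 immediate early and heat shock genes (lower row), in CPM, for each library by group and segment. In IC the *Sgk1* points of control lie at 49.6 to 58.8 CPM and those of UUO at 10.2 to 17.7 CPM, while the sums lie at 705 to 1485 and 2619 to 3782 CPM.

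*Nedd4l*, whose product removes ENaC from the membrane, was at 45.9, 40.9, 40.3, 28.5 and 35.7 CPM in DCT of control, 76.1, 81.2 and 66.8 in UIR (log2 fold change 0.56 ± 0.19 (SE), edgeR adjusted p = 0.022) and 58.7, 71.3 and 97.0 in UUO (log2 fold change 0.52 ± 0.20 (SE), edgeR adjusted p = 0.035). All injured libraries lay above all control libraries, but the UIR call ended without AN1 (0.49), AN2 (0.51), UIR (0.52), UIR1 (0.50), both N libraries (0.59) or both AN libraries (0.42). The UUO call ended without N2 (0.53), AN1 (0.45), AN2 (0.48), UUO2 (0.29), both N libraries (0.55) or both AN libraries (0.38). In all, 8 of 24 alternatives ended the UIR call and 9 of 23 the UUO call. It did not pass in any other segment in the main setting, averaging 158 ± 30.4 and 141 ± 35.9 CPM in PC of control and UIR, and 161 ± 28.004, 168 ± 3.70 and 165 ± 28.1 in IC of the 3 groups. In IC it passed as lower in 3 of 25 alternatives in UUO, with doublets kept (-0.48, edgeR adjusted p = 0.016), a mitochondrial limit of 50% (-0.39) and at least 50 cells per pool (-0.53), and in 1 of 25 in UIR, with doublets kept (-0.47, edgeR adjusted p = 0.022).

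*Tsc22d3* rose in TAL in both injuries and in IC of UUO. In TAL it was at 13.5, 0, 12.8, 8.15 and 21.1 CPM in control, 41.8, 50.4 and 46.4 in UIR (log2 fold change 1.65 ± 0.30 (SE), edgeR adjusted p = 0.00015) and 71.3, 87.2 and 61.8 in UUO (log2 fold change 2.32 ± 0.29 (SE), edgeR adjusted p = 7.6e-07). The 3 groups did not overlap, and UUO exceeded UIR (log2 fold change 0.67 ± 0.16 (SE), edgeR adjusted p = 0.019), a call that ended without UIR2 (0.66) or UUO1 (0.55), and with each cell gated on its own (0.62). In IC it was at 6.25, 19.1, 11.8, 9.85 and 7.74 CPM in control, 19.4, 19.8 and 20.7 in UIR (log2 fold change 0.67 ± 0.31 (SE), edgeR adjusted p = 0.17) and 38.2, 22.3 and 23.4 in UUO (log2 fold change 1.05 ± 0.32 (SE), edgeR adjusted p = 0.019). The IC call in UUO ended without Ctrl (0.85), AN2 (0.95), UUO (0.78) or both AN libraries (0.91), and with total UMIs as the scaling UIR passed too (0.93, edgeR adjusted p = 0.031). Macrophages carry *Tsc22d3*, at 138 ± 44.4, 120.1 ± 33.3 and 169 ± 82.8 CPM in the 3 groups. The 5 macrophage markers (*C1qa*, *C1qb*, *C1qc*, *Cd68* and *Csf1r*) summed to 0 to 5.43 CPM in TAL pools of control, 35.3 to 56.2 in UIR and 53.9 to 66.0 in UUO, and to 0 to 12.4, 27.965 to 69.5 and 45.4 to 82.7 CPM in IC pools, and their part in the rise was not tested. In DCT *Tsc22d3* averaged 27.7 ± 12.955, 23.8 ± 5.59 and 34.7 ± 5.84 CPM and did not pass (-0.65, edgeR adjusted p = 0.057 in UIR), but the UIR change passed in 7 of 24 alternatives, among them without N1 (-0.74), N2 (-0.82), UIR (-0.86) or both N libraries (-0.96).

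*Atp1b1*, the pump subunit, was lower in TAL, and in the main setting in DCT of UUO and IC of UIR. In TAL it was at 4623, 4079, 3750.2, 3199 and 3384 CPM in control, 2382, 2251 and 2515 in UIR (log2 fold change -0.91 ± 0.14 (SE), edgeR adjusted p = 3.2e-05) and 1659.7, 1978 and 1867 in UUO (log2 fold change -1.30 ± 0.15 (SE), edgeR adjusted p = 2.3e-07), and the groups did not overlap. In DCT it averaged 3247 ± 522, 3863 ± 438 and 2854 ± 253 CPM. The UUO change in DCT (log2 fold change -0.62 ± 0.16 (SE), edgeR adjusted p = 0.0025) passed with trimmed means as the scaling and did not with total UMIs (-0.18, edgeR adjusted p = 0.31). In IC it averaged 2141 ± 197, 1926 ± 221 and 2093 ± 142 CPM, with overlap. The UIR call in IC (-0.41, edgeR adjusted p = 0.033) ended in 14 of 25 alternatives, among them without Ctrl (-0.40), AN1 (-0.37), UIR (-0.39), UIR2 (-0.34) or both AN libraries (-0.40) and with total UMIs (-0.15, edgeR adjusted p = 0.39). The UUO change in IC (-0.35, edgeR adjusted p = 0.054) passed in 6 of 25, such as with doublets kept (-0.48, edgeR adjusted p = 0.0083). In DCT of UIR it passed with a mitochondrial limit of 50% (-0.63, edgeR adjusted p = 0.0013). CNT and PC did not pass, at 2923 and 3622 CPM in CNT and 2498 and 2603 in PC of control and UIR.

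PT, which carries little of the pathway, showed 2 small gains in UIR at levels no higher than the estimated free RNA. *Scnn1b* was at 1.74, 0.395, 0.492, 1.22 and 0.773 CPM in control and 4.22, 2.02 and 2.82 in UIR (log2 fold change 1.55 ± 0.44 (SE), edgeR adjusted p = 0.029), and *Hsd11b2* at 9.86, 3.42, 1.85, 4.86 and 2.80 and 16.3, 12.526 and 6.003 (log2 fold change 1.35 ± 0.36 (SE), edgeR adjusted p = 0.017). For *Hsd11b2* the groups overlapped. Both calls ended when single libraries were left out, that of *Scnn1b* without N1 (1.39), AN2 (1.49), UIR (1.24) or UIR2 (1.59) and that of *Hsd11b2* without UIR (1.11), UIR1 (1.27) or both AN libraries (1.19). In all, 5 of 19 alternatives ended the *Scnn1b* call and 9 of 23 the *Hsd11b2* call, among the latter DESeq2 (1.37), at least 1000 UMIs per cell (1.22) and each cell gated on its own (1.18). Free RNA carries both transcripts. The estimated free RNA share of the PT pools times the level in empty droplets came to 4.34, 3.96 and 2.91 CPM of *Scnn1b* and 20.6, 19.2 and 18.3 CPM of *Hsd11b2* in UIR, UIR1 and UIR2, as much as or more than the levels observed. In the control libraries it came to 0.463 to 1.96 CPM and 2.36 to 10.9 CPM, and with the empty-droplet profile subtracted neither gene had enough UMIs in PT to be tested. The 163 PT cells of UUO had no *Scnn1b* UMI, no member passed in UUO, and free RNA made up 6.589% to 33.615% of their UMIs.

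Between the injuries, UUO against UIR, 2 of 34 pairs passed, *Tsc22d3* in TAL as given above and *Hsd11b2* in IC (log2 fold change -2.53 ± 0.58 (SE), edgeR adjusted p = 0.025). The IC difference rested on a spread UIR group, and ended in 9 of 20 alternatives, without UIR1 (-1.80), UIR2 (-2.46), UUO1 (-2.10) or UUO2 (-2.57), with a mitochondrial limit of 50% (-2.05), each cell gated on its own (-1.51), DESeq2 (-2.47), at least 50 cells per pool (-2.53) or only the 2 groups in the fit (-2.52). Further pairs passed with a library left out, namely *Scnn1b* in IC (without UIR (-1.10)), *Scnn1g* in IC (without UIR (-2.01)) and *Scnn1b* in TAL (without UIR1 (1.58)). *Scnn1b* and *Scnn1g* in IC passed also with a mitochondrial limit of 15%, with doublets kept, without a filter on low counts and with the replicate block (-0.79 and -1.50), and *Scnn1b* in TAL with a mitochondrial limit of 50% and with doublets kept. *Atp1b1* passed as lower in DCT with a mitochondrial limit of 50% (-0.82, edgeR adjusted p = 0.0018) and with each cell gated on its own (-0.68), and in TAL with a mitochondrial limit of 50% (-0.45). Over all genes, 2.59% passed in TAL, 1.42% in DCT, 1.67% in IC and 0% in PT. An unnamed cluster led by *Sprr2f*, *Spink12* and *Pigr* (cluster 9), with 148 UIR, 243 UUO and 1 control cell, carried the pathway as well. Its *Hsd11b2* averaged 1766 ± 742 CPM in UIR and 1302 ± 122 in UUO, *Scnn1b* 225 and 206, *Scnn1a* 123 and 132, *Scnn1g* 128 and 105, and *Sgk1* 4.97 and 8.95 CPM. None of the 8 members tested differed between UIR and UUO there, where 0.119% of all genes did.

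Whether a change differed between neighbouring segments was tested in 1 fit over all pools, and 23 of 72 differences passed. The rise of *Hsd11b2* in DCT exceeded the change in CNT after UIR by 4.37 (log2) and that in IC after UUO by 7.91. For *Scnn1b* the same differences were 1.32 and 2.84. *Scnn1a* fell further in TAL than in DCT (difference of the changes -0.79 in UIR and -0.56 in UUO), and *Tsc22d3* rose further in TAL than in DCT, by 2.32 and 2.54. No difference in the change of *Sgk1* between neighbouring segments passed. Over all genes the share that passed in UIR was 22.9% for PT against TAL, 6.13% for TAL against DCT, 7.41% for DCT against CNT, 0.659% for CNT against PC and 3.74% for PC against IC, and in UUO 13.5% for PT against TAL, 7.61% for TAL against DCT and 18.9% for DCT against IC.

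The other genes that process, cleave or ubiquitylate ENaC and the kinases around them (18 genes) moved in both directions. In TAL 5 rose and 5 fell in each injury, in DCT 6 rose and 5 fell in UIR and 5 and 5 in UUO, and in IC 2 of 17 rose and 4 fell in UIR and 2 and 3 in UUO. In CNT 1 of 15 rose and 2 fell, in PC none of 17 passed, and in PT 3 rose in UIR and none in UUO. Over all genes in UIR, 16.8% rose and 14% fell in TAL, 17.9% and 17.7% in DCT and 7.44% and 8.14% in IC. The shares in UIR were 6.87% and 2.92% in PT, 3.62% and 5% in CNT and 2.48% and 3.55% in PC. In UUO they were 20.1% and 16.6% in TAL, 20.6% and 19.9% in DCT, 11.8% and 13.5% in IC and 3.23% either way in PT. The list median stayed between -0.15 and 0.06 on the log2 scale in these fits, where the median of all genes was between -0.14 and 0.08. *Wnk1*, a kinase that governs sodium chloride transport in the distal nephron, had the largest change of the list in TAL and DCT. It fell in DCT by 2.22 in UIR and 3.46 in UUO, and in TAL by 2.51 and 2.97, on the log2 scale. *Klhl3*, the adaptor that marks WNK kinases for degradation, fell by 2.12 and 2.79 in DCT and by 1.64 and 2.20 in TAL. *Wnk4* fell by 1.04 in CNT of UIR and by 1.61 in IC of UUO, and *Usp2*, a deubiquitylase, by 1.88 in IC of UUO. Among those that rose were *Spint1*, a protease inhibitor, in DCT (1.37, edgeR adjusted p = 1.4e-08) and IC (0.62, edgeR adjusted p = 0.00086) of UUO, *Nedd4* in CNT of UIR (0.49, edgeR adjusted p = 0.037) and *St14*, encoding the protease matriptase, in PT of UIR (2.25, edgeR adjusted p = 0.00015).

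Steroid receptors and further steroid-induced genes (15 genes) did not move one way either. Their counts are to be read against the shares of all genes given with the list of ENaC processing genes. In TAL 3 of 13 rose and 3 fell in UIR and 4 and 3 in UUO, in DCT 4 of 13 rose and 6 fell in UIR and 3 and 6 in UUO, and in IC 2 of 13 rose and 1 fell in UIR and 3 and 2 in UUO. In CNT 1 of 8, in PC 1 of 11 and in PT of UIR 2 of 15 went each way, with 1 of 15 each way in PT of UUO. *Edn1*, the endothelin-1 gene, rose in every segment of UIR, by 4.11 in PT, 2.51 in TAL, 5.21 in DCT, 1.72 in CNT, 2.32 in PC and 3.18 in IC. *Ndrg2* fell by 2.24 in DCT and 3.19 in TAL of UIR, and *Fkbp5*, a chaperone partner of steroid receptors that they induce, fell by 2.19 in DCT, 1.28 in TAL and 1.91 in PC. *Rhob* rose by 5.52 in DCT of UIR and 6.03 in DCT of UUO. The list median lay between -0.33 and 0.07.

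Of the other sodium pump and potassium channel genes (8 genes), none rose in TAL, DCT or IC, and 3 to 7 of the 7 tested fell. The shares of all genes that rose or fell are those given with the list of ENaC processing genes. In TAL 6 of 7 fell in UIR and 7 of 7 in UUO, with a list median of -0.86 and -1.54 where all genes had 0.08. In DCT 5 of 7 fell in each injury (median -0.68 and -1.11, all genes 0.03 and 0.04), and in IC 3 of 7 in UIR and 5 of 7 in UUO (median -0.90 and -1.997, all genes 0.01). In CNT 1 of 7 fell (*Fxyd2*, -1.27, edgeR adjusted p = 1.7e-07), and in PT 1 of 5 rose in UIR and none of 5 passed in UUO. *Kcnj10*, a basolateral potassium channel, was the member with the largest fall in TAL, by 2.17 in UIR and 3.60 in UUO. *Kcnj1* (ROMK), the apical channel that secretes potassium, fell by 3.99 in IC of UUO and by 1.11 in DCT of UUO.

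The immediate early and heat shock genes (14 genes) rose in part. For them too, the shares of all genes that rose or fell are those given with the list of ENaC processing genes. In TAL 6 of 13 rose and 1 fell in each injury, in DCT 5 of 12 rose and 2 fell in UIR and 6 and 3 in UUO, and in IC 4 of 13 rose in UIR and 7 in UUO with none lower. In CNT 2 of 7 rose, in PC 1 of 11 went each way, and in PT 2 of 12 rose and 1 fell in UIR and none passed in UUO. *Junb* rose by 3.34 in DCT of UIR and 2.62 in TAL of UUO, *Fos* by 1.73 and 2.71 in IC of UIR and UUO, and *Egr1* by 4.28 in DCT of UIR. *Ier3* fell in DCT, by 1.38 in UIR and 2.38 in UUO. The list median lay between -0.11 in PC and 1.10 in IC of UUO.

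The genes whose levels were most like those of the channel subunits were sought over the 60 pools of a library and a segment, among 8217 genes, by Pearson's r of log2(CPM + 1). For *Scnn1a* they were *Cldn8* (r = 0.956), a tight junction gene of the distal nephron, *Slc35g1* (0.952) and *Tle2* (0.949). For *Scnn1b* they were *Gata3* (0.95), *Rhcg* (0.95), an ammonia channel gene, and *Anxa11* (0.944), and for *Scnn1g* *Rhcg* (0.951), *Cav1* (0.941) and *9230102O04Rik* (0.941). The pools share libraries and segments, so these values describe the pattern only.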

How the data were processed

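Kidney cells of 5 naive, 3 UIR and 3 UUO mice were profiled with 10x Genomics 3′ v3 chemistry, and the study's methods give as many mice per group as there are libraries. The authors deposited raw UMI counts per gene and barcode, made per the labels with Cell Ranger 3.1.0 on the mm10 build, for all 6794880 barcodes and 28692 genes of each library, that is, before their own removal of free RNA and doublets. No per-sample column was left unused (0).

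Cells were called from these counts by an empty-droplet test (at least 500 UMIs, false discovery rate 0.01), filtered (at most 30% mitochondrial and 5% haemoglobin UMIs, at least 200 genes), and stripped of the 7.5% of cells with the highest doublet score. They were clustered (2000 variable genes, 40 principal components, 20 neighbours, Leiden resolution 1, then again within the tubular cells with 30 components), and clusters were named from marker genes or left unnamed. UMIs were summed per library and segment (pools of at least 20 cells) and fitted with edgeR 4.0.16 in R 4.3.3 (TMM scaling, quasi-likelihood test, Benjamini-Hochberg adjustment over all genes tested, threshold 0.05), with the 3 groups in 1 fit and no covariate. DESeq2 1.42.0 was an alternative. Exact intervals are at 95% and cover counting error only. The fits were checked on counts drawn with known changes. Clustering used Python 3.11.15 with scikit-learn 1.9.0 and leidenalg 0.10.2.

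The 9 genes and the lists were chosen with earlier results of these data known. Named genes are the 9 in every segment that could be pooled, up to 4 genes per other list, segment and contrast past the threshold in order of absolute change (some are left out for brevity, and the result of the pump and channel list in PC is not reported here), and the 3 genes most like each subunit. Genes and clusters outside that rule (markers, cluster values) were named after their values were seen. RefSeq promoter windows matched 6 of 9 genes by symbol. Alternatives covered filters, gating, doublets, scaling, tools, free RNA, the control batches, single libraries and the replicate numbers. The numbers in the titles did not pair UIR1 and UIR2 with UUO1 and UUO2. Correlations of same-numbered libraries, each taken as its deviation from its group mean, ran from -0.098 to 0.257. The unnumbered UIR and UUO libraries correlated best with each other (0.272 to 0.647).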

Additional observations from a re-analysis of the deposited data

Results flagged for a closer look

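Differences in the injury response between segments passed the test for 23 of 72 gene and segment pairs, in a fit over all pools. After UIR, the change in PT minus the change in TAL was 0.99 (log2) for *Atp1b1*, -1.62 for *Tsc22d3*, 1.70 for *Scnn1a* and 1.19 for *Nr3c2*. The change in TAL minus that in DCT was -0.80 for *Atp1b1*, 2.32 for *Tsc22d3*, -0.79 for *Scnn1a* and -1.15 for *Nr3c2*. DCT minus CNT was 1.32 for *Scnn1b* and 4.37 for *Hsd11b2*, and PC minus IC was 0.57 for *Scnn1a*. After UUO, PT minus TAL was 0.73 for *Atp1b1* and -3.54 for *Tsc22d3*, and TAL minus DCT was -0.70 for *Atp1b1*, 2.54 for *Tsc22d3*, -0.56 for *Scnn1a* and -1.27 for *Nr3c2*. DCT minus IC was -1.25 for *Tsc22d3*, 1.01 for *Scnn1a*, 2.73 for *Scnn1g*, 2.84 for *Scnn1b*, 7.91 for *Hsd11b2* and 0.87 for *Nedd4l*. In PT of UUO, *Tsc22d3* had 0, 2 and 2 UMIs in UUO, UUO1 and UUO2, at 0, 10.2 and 8.62 CPM. Estimated free RNA came to 34.9, 13.9 and 2.97 CPM there, and the change within PT did not pass (-1.08, edgeR adjusted p = 0.60). *Scnn1a* in PT of UIR, UIR1 and UIR2 stood at 3.94, 4.03 and 7.77 CPM, with estimated free RNA at 2.27, 3.13 and 2.72 CPM. The cause of the differences between segments was not tested, and the clusters that make up TAL, DCT and IC also differ between the groups.

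A single control library stood far from the other 4 in 5 of 54 gene and segment groups, where chance flags about 1 in 20. These were *Scnn1a* in PT of Ctrl (6.54 CPM), *Nedd4l* in PT of Ctrl (37.1 CPM), *Scnn1g* in TAL of AN1 (10.9 CPM), *Scnn1b* in DCT of N1 (112 CPM) and *Scnn1g* in DCT of AN2 (18.7 CPM).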

How the results depend on the processing

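Of the gene and segment pairs, 17 passed in UIR against control and 18 in UUO against control, and these counts moved by less than 1.5 times under every alternative but one. With a mitochondrial limit of 15% both were 0. Only 5 pairs, all in PT, could then be tested, among them 1 of the main calls, *Hsd11b2* in UIR, which did not pass (1.49, edgeR adjusted p = 0.10). Leaving out single libraries gave 13 to 19 calls in UIR and 15 to 18 in UUO, leaving out the N libraries 16 and 15, leaving out the AN libraries 12 and 15, and DESeq2 14 and 17. Total UMIs as the scaling, chosen after seeing the data, kept 15 of the 17 and 15 of the 18 calls. The contrast of UUO with UIR, 2 calls in the main setting, moved most, with 4 calls at a mitochondrial limit of 15% and 4 at 50%, 5 with doublets kept, 4 without a filter on low counts, 1 with DESeq2, 1 with at least 50 cells per pool, 1 with only the 2 groups in the fit and 0 to 4 without single libraries. With each cell gated on its own it had 6 calls, 5 of them among 9 pairs in CNT, and at Leiden resolution 2 it had 11, 9 of them in the 9 pairs in PC, pairs that could not be tested in the main setting. Of the 31 and 33 pairs tested in both, 1 and 2 passed. The cause of the other moves was not tested. The control order had 24 passing steps (16 to 22 without single libraries) and the differences between segments 23 (17 to 24). The sign of the estimate reversed for 3 single results in DCT of UIR. *Scnn1g*, which did not pass in the main setting (-0.26), was at 2.91 with a mitochondrial limit of 50% and at 3.63 with each cell gated on its own. With cluster 13 alone (chosen after seeing the data), *Hsd11b2* and *Nedd4l* were both at -0.35. Neither of these 2 passed there (edgeR adjusted p = 0.92 and 0.87).

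With the number in the title as a replicate block the counts were 19 in UIR, 18 in UUO and 4 in UUO against UIR, and all main calls were kept (17, 18 and 2). Correlations between libraries were taken over genes, on the deviation of log2(CPM + 1) from the mean of a library's own group. Those of UIR with UUO, UIR1 with UUO1 and UIR2 with UUO2 were 0.647, 0.257 and 0.178 in TAL. They were 0.344, 0.037 and -0.098 in DCT and 0.272, -0.027 and 0.064 in IC. The unnumbered UIR and UUO libraries correlated best with each other in each of these segments. Their correlations with the numbered libraries of the other injury were all negative, from -0.522 to -0.117. Deviations from a group mean cancel out within the group, so a positive value for a pair by itself lowers the values of the other pairs. Among the numbered libraries the correlations ran from -0.098 to 0.484. UIR1 and UIR2 did not correlate best with the UUO library of their own number, so the numbers were not read as pairs. The split between unnumbered and numbered libraries is therefore in part a product of the centring, and any other cause was not tested. Depth limits CNT and PC of UUO most, with 10 and 14 cells.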
